A study of Homo sapiens with 26 samples.

Results

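Across the 10 deposited lists of receptor binding sites, 750 of 64490 places in the genome (1.16%) held a called estrogen receptor (ER) site in exactly 3 libraries: T47D cells given estradiol (E2), PR-deficient T47D cells given E2, and PR-deficient T47D cells given E2 together with the progestin R5020. To find them, all 87206 sites were merged into union regions wherever they overlapped by 1 bp or more, and the regions holding a site of those 3 lists and of none of the other 7 were kept. They are called core regions here. "Estrogen-only" describes them incompletely, since 1 of the 3 libraries also received R5020. What they share is that E2 was present in each of the 3 libraries, that R5020 alone gave no called ER site in either line, that neither a PR list nor the ER-PR list touches them, and that T47D cells given both hormones gave no called ER site there. All of this is fixed by the way the regions were chosen and is no finding.

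Binding was measured by ChIP-seq, the sequencing of DNA pulled down with an antibody to a bound protein. The cells were T47D, a human breast cancer line with both ER and the progesterone receptor (PR), and a PR-deficient form of T47D. How PR was lost in the latter, and whether it is 1 clone, the sources used here do not give. All cells spent 48 h in charcoal-stripped serum, which removes steroids, and then received vehicle, 10 nM E2, 10 nM R5020 or both for 45 min. The 3 defining libraries used the ER antibody HC-20. The other 7 lists are ER with R5020 and with both hormones in T47D, ER with R5020 in PR-deficient cells, PR (antibody KD68) with E2, R5020 and both in T47D, and a sequential ER and then PR immunoprecipitation (reChIP) with both hormones in T47D. Each of the 26 groups holds 1 library, which leaves no replicate error, and no test between conditions was made. The 10 libraries with a list are used here.

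ER is a nuclear receptor that binds E2, enters a dimer and attaches to DNA at estrogen response elements or through other DNA-bound factors, mostly at enhancers far from gene starts. In luminal breast cancer cells, pioneer factors such as FOXA1 keep many of these enhancers open. PR is itself a classical product of estrogen signalling and, once bound to progestin, can meet ER at shared enhancers. A sequence and annotation of hg19, the build of these coordinates, were not used here, so core regions are given by position with no gene, motif or sequence.

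The 3 defining lists differed from the other 7 in more than their hormone. Their scores, the authors' own value for each site, rose in steps of 0.582 (T47D ER with E2), 1.61 (PR-deficient ER with E2) and 1.59 (PR-deficient ER with both), while the steps of the other 7 lists ran from 1.82 to 8.66. Their sites were also wide, with medians of 1171, 1076.5 and 1329 bp, against 149 to 292 bp in the other 7 lists. Presence in these 3 lists and absence from the other 7 therefore cannot be told apart from these properties of the lists. Read depth was not stated. All lists of 1 line and antibody also had a vehicle library subtracted, per the labels.

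The core was what remained after 3 successive conditions. Of 4005 regions with a T47D ER site under E2, 2196 (54.8%, exact Clopper-Pearson 95% interval 53.3 to 56.4) also held a PR-deficient ER site under E2. Of those, 1355 (61.7%, 59.6 to 63.7) also held a PR-deficient ER site under both hormones, which is 2.10% of all union regions. Of the 1355 regions with all 3 lists, 750 (55.4%, 52.7 to 58.0) were free of the other 7 lists and form the core, and the remaining 605 held at least 1 further list. Intervals here and below cover counting error over regions only. Counted as sites, the core held 755 of the 4014 T47D ER sites with E2 (18.8%, 17.6 to 20.1), 770 of the 7742 sites of PR-deficient cells with E2 (9.95%, 9.29 to 10.6) and 757 of their 5663 sites with both hormones (13.4%, 12.5 to 14.3). The number of core regions depended on the score threshold of the 3 defining lists and was 364 when only the higher-scoring 50% of their sites were used.

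The 605 regions left out of the core held the other 7 lists unequally. T47D ER with both hormones, the longest list, held a site at 378 of the 1355 (27.9%), against 29.4% of all union regions. The reChIP list was present at 332 (24.5%), against 14.7% of all union regions, and was the 1 list of the 7 with a higher share at 3-list regions. PR with both hormones held a site at 241 (17.8%, against 18.2%) and T47D ER with R5020 at 98 (7.23%, against 8.14%). Lower shares than over all regions were held by PR with R5020 at 59 (4.35%, against 9.60%), PR-deficient ER with R5020 at 49 (3.62%, against 13.4%) and PR with E2 at 38 (2.80%, against 12.3%). Every union region holds at least 1 list by construction. Sites that a list shares with no other therefore raise its share of all union regions, but not its share of the 3-list regions. The 3-list regions also hold wide sites, which another list touches more easily. The part of width and of unshared sites in the higher and lower shares was not tested, so these shares are descriptions only. In 282 of the 605 only 1 of the 7 lists was present, most often T47D ER with both hormones (103). Ignoring that list altogether would have raised the core from 750 to 853 regions. Counted by kind of list, 169 of the 605 held no further ER list and were excluded by PR or reChIP sites alone. This count overlaps the 282, as it includes regions with only 1 PR or reChIP list.

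Core regions reached high ranks in each defining list, but none held its topmost places. A percentile here is a site's place by score within its own list, with 100 the highest, and a region with several sites of a list takes the best. The median percentile was 63.2 in T47D ER with E2, 77.6 in PR-deficient ER with E2 and 66.7 in PR-deficient ER with both hormones. The best-placed core site ranked 48 in T47D, 54 in PR-deficient cells with E2 and 48 in PR-deficient cells with both. The highest-scoring quintile, which holds 20% of each list by construction, held 208 of the 750 in T47D (27.7%, 24.6 to 31.1), 345 in PR-deficient cells with E2 (46.0%, 42.4 to 49.6) and 219 in PR-deficient cells with both (29.2%, 26.0 to 32.6). Presence in 3 lists favours high scores, so these shares describe the selection.

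The 605 regions that also held another list stood higher by score, and most so in T47D cells. Their median percentile in T47D ER with E2 was 84.5, against 63.2 in the core. In PR-deficient ER with E2 the medians were 83.4 and 77.6, and with both hormones 76.6 and 66.7. All 3 sites lay in the highest quintile of their lists at 208 of the 605 (34.4%) and at 103 of the 750 core regions (13.7%). No core region had all 3 sites in the lowest quintile, and 338 had none in the highest. These are descriptions without a test, because both classes were defined by calls in the same libraries.

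**Figure D1:**
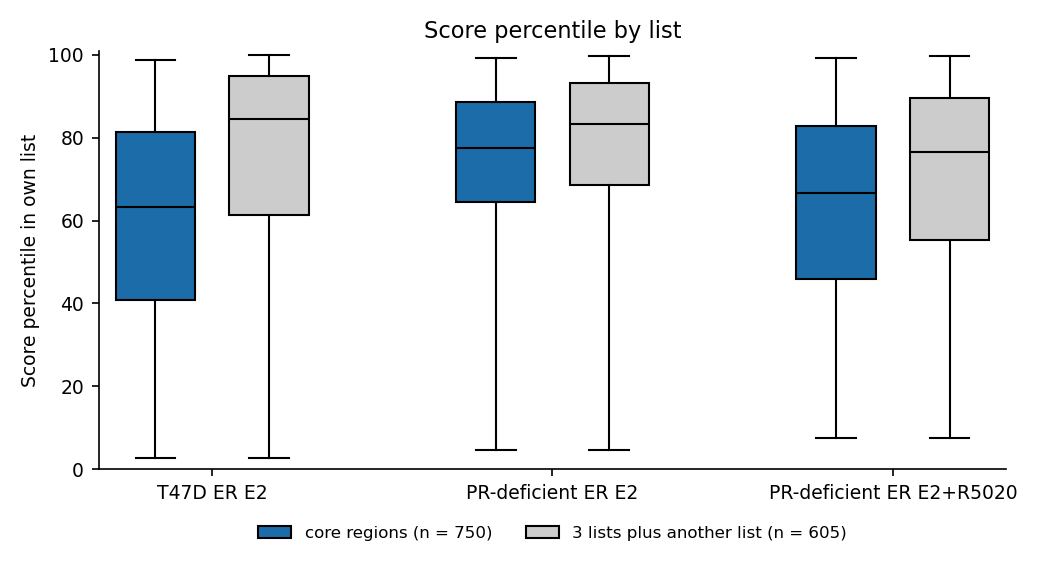
Score percentile (y axis, 0 to 100 within each list) of the 750 core regions and the 605 regions that held the same 3 lists plus another, in each of the 3 defining lists. Boxes span the quartiles with the median as a line, and whiskers reach the lowest and highest region. The core box sits lower in each list, with medians of 63.2 against 84.5 in T47D ER with E2.

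Regions that were strong in T47D cells under E2 were the ones most often shared with another list. In the highest quintile of T47D ER scores, 208 of 550 3-list regions were core (37.8%, 33.7 to 42.0). The share was 63.2% (57.6 to 68.5) in the next quintile, 69.4% (63.0 to 75.3) and 68.1% (59.7 to 75.7) in the ones below, and 73.7% (64.6 to 81.5, 84 of 114) in the lowest. The interval of the highest quintile, which covers counting error only, did not meet those of the other 4. This is no test, since the classes were defined by calls in the same lists. T47D sites were also wider in the highest quintile (list median 1486 bp) than in the lowest (1026.5 bp). Wider sites touch another list more easily, and the part of width in these shares was not tested. In that quintile 273 of the 550 regions (49.6%) held a T47D ER site with both hormones, against 4 of 114 (3.51%) in the lowest. Ordered by PR-deficient scores the span was smaller, from 50% (46.2 to 53.8) in the highest quintile to 62.7% (55.0 to 70.0) in quintile 3 for E2, and from 44.8% (40.3 to 49.3) in the highest to 64.2% (55.4 to 72.3) in quintile 4 for both hormones. Sites of equal score were ordered by length, so neighbouring low quintiles differ in part by length.

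**Figure D2:**
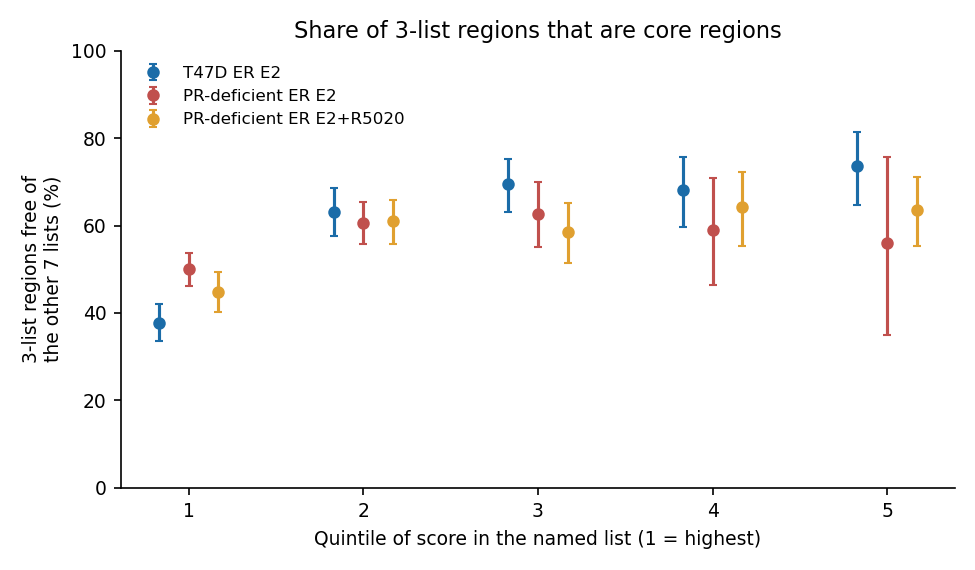
Share of 3-list regions that were free of the other 7 lists (y axis, percent) by quintile of score in each defining list (x axis, 1 the highest). Points are shares and bars exact 95% intervals for counting error, and the lowest point is the highest T47D quintile at 37.8%.

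The 2 larger classes held by only 2 of the 3 defining lists had lower medians than the core. The 560 regions held only by the E2 lists of the 2 lines, with no PR-deficient site under both hormones, had a median percentile of 44.7 in T47D and 40.9 in PR-deficient cells. In the 1186 regions held only by the 2 PR-deficient lists, the medians were 59.7 with E2 and 51.0 with both hormones. Only 19 regions held the T47D E2 list and the PR-deficient list of both hormones without the PR-deficient E2 list. For comparison, the core and the 605 other 3-list regions hold all 3, and the medians of those 605 were above those of the core. Presence in more lists favours high scores, so this order describes the selection.

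Within the core, the order of the regions was alike in the 2 PR-deficient libraries and much less so between the lines. Over the 750 regions, Spearman's rho of the percentiles was 0.811 between PR-deficient E2 and PR-deficient E2+R5020. It was 0.357 between T47D and PR-deficient cells under E2, and 0.319 between T47D with E2 and PR-deficient cells with both. The PR-deficient pair shares its line and antibody and the vehicle treatment of that line as background, and regions are not independent replicates, so these are descriptions. In the 605 regions with another list the 3 values were 0.867, 0.605 and 0.536 in the same order. Of 77 core regions at or above percentile 90 in T47D, 73 (94.8%) were at or above percentile 50 in PR-deficient cells with E2. Of 34 below percentile 10 in T47D, 26 (76.5%) were, and over the whole core 659 of 750 (87.9%) were.

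**Figure D3:**
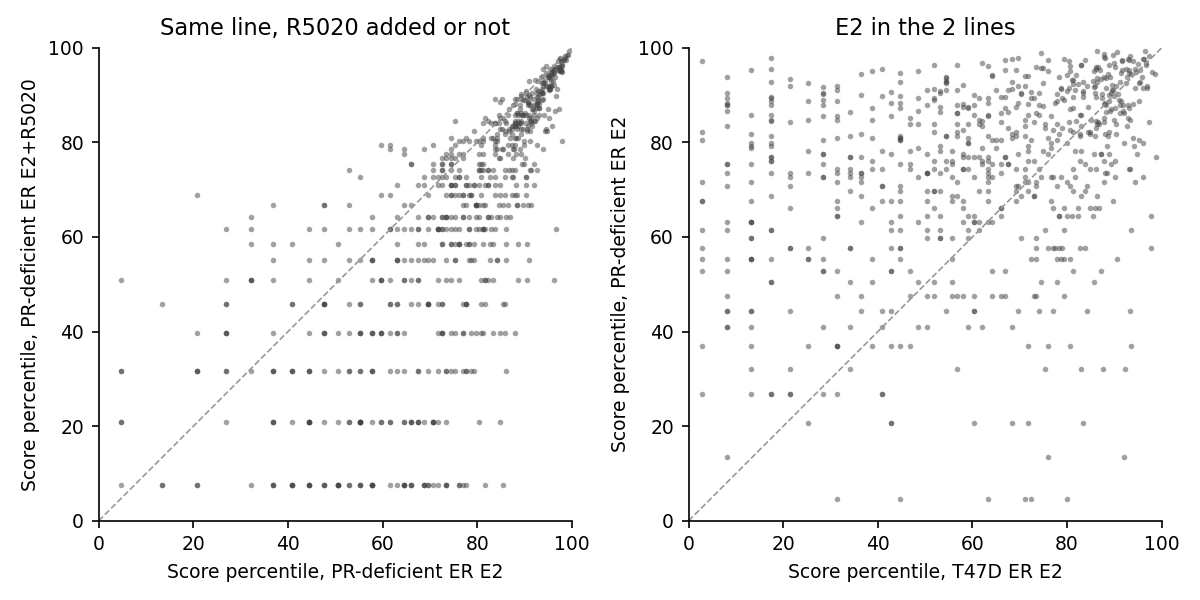
Score percentiles of the 750 core regions, 1 point each, with the line of equality dashed. Left, PR-deficient ER with E2 (x) against PR-deficient ER with E2+R5020 (y), rho 0.811. Right, T47D ER with E2 (x) against PR-deficient ER with E2 (y), rho 0.357, where many points with low T47D percentiles lie high on the y axis.

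The leading core region, by mean percentile over the 3 lists, was chr14:95522303-95524390. It scored 122 in T47D with E2 (rank 140 of 4014), 447 in PR-deficient cells with E2 (rank 54 of 7742) and 336 in PR-deficient cells with both hormones (rank 48 of 5663). Scores are on a scale of their own in each list and are not compared between lists. Next came chr17:80843353-80844494, with ranks 112, 138 and 130 in the same order. The region chr22:43129852-43131398 ranked 163, 185 and 168. In percentiles the first stood at 96.5, 99.3 and 99.2, the next at 97.2, 98.2 and 97.7, and the last at 96.0, 97.6 and 97.1.

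Neighbouring core regions on chromosome 18 followed. At chr18:20836968-20838935 the ranks were 151, 182 and 220, and at chr18:20839007-20841169, which begins 71 bp after the end of the former, they were 269, 135 and 155. Another core region, chr18:20860952-20863073, lies close by and had the order number 124 in the core. The whole stretch of these 3 regions spans 26.1 kb.

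The region chr4:3813640-3816035 ranked 134 in T47D, 289 in PR-deficient cells with E2 and 282 with both hormones, which are percentiles of 96.7, 96.3 and 95. At chr20:52811154-52812890 the ranks were 377, 81 and 94, and the percentiles 90.6, 99.0 and 98.4. The region chr2:11670715-11671919 had the best T47D place among the 20 leading core regions, rank 81 with a score of 145, and stood at 399 and 321 in the PR-deficient lists (percentiles 98.0, 94.9 and 94.3). Ranks are counted in lists of different lengths, so the percentiles are the ones to compare.

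Others of the leading 20 were chr14:74068265-74069545 (ranks 241, 216 and 284), chr17:77876939-77879584 (290, 175 and 256) and chr1:15239795-15241132 (418, 118 and 127). Further ones were chr2:42237452-42238894 (280, 205 and 267), chr16:56404307-56405874 (137, 250 and 496) and chr6:168151183-168152865 (227, 343 and 315). Chromosome 7 carried 4 of the 20, more than any other chromosome. Of these, chr7:140692035-140693540 had the lowest T47D place of the 20, rank 547, with ranks 65 and 90 in PR-deficient cells, and chr7:98393825-98395783 ranked 492, 108 and 95. The other two were chr7:129947074-129949101 (336, 209 and 227) and chr7:36311928-36313874 (268, 430 and 216). Rank 20 of the core was chr3:65938647-65939864, with ranks 189, 373 and 500. The 20 came from 13 chromosomes, and their percentiles ran from 86.4 to 98.0 in T47D, 94.5 to 99.3 in PR-deficient cells with E2 and 91.3 to 99.2 with both.

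At the other end, the core regions of lowest mean percentile were chr16:80653383-80654375, chr19:2782374-2783851 and chr10:95577677-95578381. The first had the lowest score kept in T47D (15.1) and in PR-deficient cells with both hormones (25.5), and 33.9 in PR-deficient cells with E2. Sites within 1 step of the lowest score kept made up 10.8% of the T47D list, 17.4% of the PR-deficient E2 list and 26.7% of the PR-deficient list of both hormones. In the core they were 34 of 755, 13 of 770 and 107 of 757 sites (4.50, 1.69 and 14.1%). The PR-deficient library with both hormones was thus the one in which core regions most often sat at the threshold.

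Some core regions ranked far apart in the 2 lines. The percentile was higher in T47D than the mean of the PR-deficient pair at 289 core regions and lower at 461. The gap exceeded 50 points at 17 regions in favour of T47D and at 62 in favour of PR-deficient cells. The list lengths differ, so this shows an order within lists and not a change in binding. The largest gap toward PR-deficient cells was at chr19:15703072-15705533, whose T47D score of 15.1 was the lowest kept (percentile 2.8), while the PR-deficient percentiles were 97.2 with E2 and 87.0 with both. It was followed by chr13:30596349-30598365 (8.2 against 93.9 and 89.2) and chr16:66311490-66313001 (13.1 against 95.3 and 93.6). Toward T47D, chr18:46522887-46524093 led, with percentile 92.1 in T47D against 13.4 and 7.5 in PR-deficient cells. Next were chr5:70319135-70320112 (72.4 against 4.7 and 7.5) and chr11:3236239-3237342 (76.0 against 13.4 and 7.5). A percentile of 7.5 in the PR-deficient list of both hormones is that of its lowest score, so these 3 regions sat at its threshold.

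The 3 sites of a core region lay close on one another, although the rule asked only for 1 bp of overlap. In 722 of the 750 regions each list contributed exactly 1 site. The stretch common to the best site of each list had a median of 835.5 bp (quartiles 696.25 and 1019.75), and its share of the narrowest site had a median of 97.8%. The narrowest site lay wholly inside the other two at 286 regions (38.1%). The 3 centres spanned a median of 146.75 bp (quartiles 92.5 and 283.25), and in 475 regions (63.3%, 59.8 to 66.8) they fell within 200 bp. In the 605 regions with another list the centres spanned a median of 197.5 bp and fell within 200 bp at 50.6% (46.5 to 54.6), where sites were also wider. By overlap those regions were not looser. Their common stretch had a median of 964 bp and a median share of 98.8% of the narrowest site. The narrowest site lay wholly inside the others at 44.3% of them. Within the core, the median distance between centres was 86.5 bp for the PR-deficient pair and 90.25 bp between the lines under E2. It was 97.25 bp for T47D with E2 against PR-deficient cells with both.

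**Figure D4:**
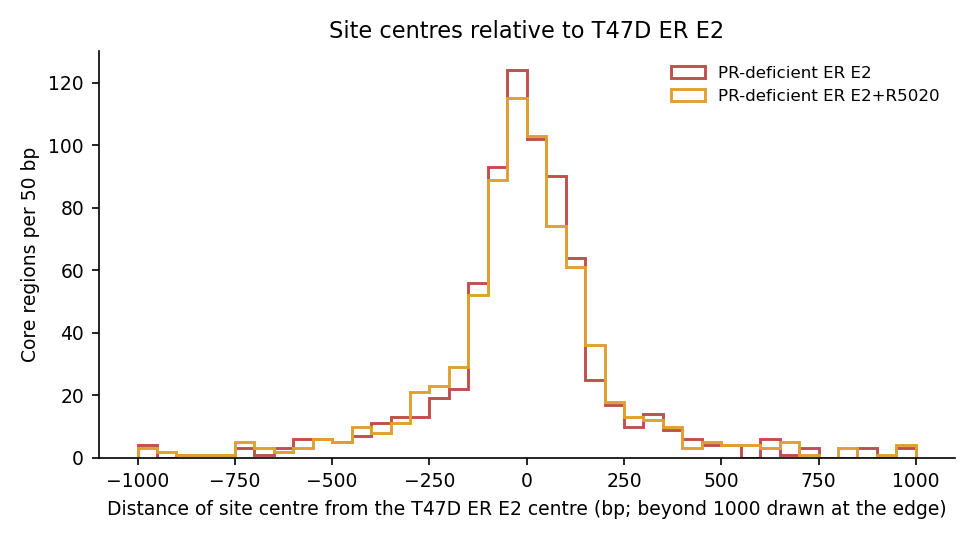
Distance in bp from the centre of the T47D ER site with E2 to the centre of the PR-deficient ER site (x axis), as the number of core regions per 50 bp (y axis), for E2 and for E2+R5020. Both curves peak at 0, and distances beyond 1000 bp are drawn at the edges.

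The median core site was narrower than that of its whole list in each of the 3 libraries, by the widest margin with both hormones. It was 1156 bp in T47D (whole list 1171), 1019.5 bp in PR-deficient cells with E2 (1076.5) and 976 bp with both hormones (1329). By the best site of each list, the 605 regions left out had medians of 1520, 1161 and 1134 bp. Those of the core were 1156.5, 1024.5 and 976.5 bp. The rule drops a region touched by another list, and wider sites are touched more easily. How far this shaped the widths was not tested. Core sites also scored higher than their lists, and within the highest score quintile the medians were 1379 bp against 1486 in T47D, 1121 against 1361 in PR-deficient cells with E2 and 1140 against 1473 with both. Within a core region the T47D site was the widest of the 3 at 440 regions, and its width was 1.15 times that of the PR-deficient E2 site in the median. In PR-deficient cells the site under both hormones was narrower than that under E2 at 414 of 750 regions (55.2%), with a median ratio of 0.970. Neither order was particular to the core. In the 605 regions left out, the T47D site was the widest at 410, with a median ratio of 1.24 to the PR-deficient E2 site. Their PR-deficient site under both hormones was narrower than that under E2 at 56.2%, with a median ratio of 0.966. Core regions as a whole ran from 625 to 4789 bp, with a median of 1321 bp.

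At the edge of the rule, the core region with the smallest stretch shared by the best sites was chr11:34675099-34677069. Its best T47D and best PR-deficient E2 sites shared no base, and the PR-deficient site of both hormones overlapped each of them. This region held 2 sites of each of these E2 lists. Only the best of each was compared, so it does not show that the lines share no stretch there. At chr19:34285377-34289602 the best sites of the 3 lists shared 1 bp. That region held 2 T47D sites, and the one of lower rank was not compared. At chr1:147848437-147849426, with 1 site of each list, the shared stretch was 348 bp. Just outside stood pairs of neighbouring regions that together held all 3 lists but missed each other: chr5:133372436-133373808 and chr5:133373841-133374460 by 32 bp, chr7:69110293-69111242 and chr7:69111422-69112500 by 179 bp, and chr21:45234003-45235552 and chr21:45235778-45237564 by 225 bp. On the side of exclusion, chr10:13720924-13722443 was left out for an overlap of 33 bp with a T47D ER site of R5020. The regions chr15:21216917-21219186 and chr22:39755186-39757869 were left out for 63 bp each, with a PR site of E2 and a T47D ER site of both hormones.

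The distance from a core region to the other 7 lists was close in value to that of similar places. The nearest such site lay a median of 13.4 kb away, within 1 kb at 57 core regions (7.60%) and within 10 kb at 330 (44.0%). In the 5616 regions that held some other combination of the 3 defining lists and none of the other 7, the median was 12.5 kb and the shares were 8.97% and 45.0%. T47D ER with both hormones was the nearest of the 7 lists in the median, at 47 kb, followed by PR with both hormones at 84.7 kb and reChIP at 94.5 kb. T47D ER with R5020 was the farthest, at 308 kb. Longer lists have closer sites, and the first of these is the longest. The core regions closest to another list were chr2:238418270-238419961 and chr16:80649163-80650926, with a PR site of both hormones 18 and 40 bp away, and chr3:72751195-72752197, with a T47D ER site of R5020 56 bp away. Among the most isolated were chrX:109416052-109417153, with no such site within 487417 bp, and chr10:114055411-114056669, with none within 431969 bp.

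Core regions lay on every chromosome except Y. Chromosome 1 held 96 (12.8%, 10.5 to 15.4), chromosome 2 held 64 (8.53%, 6.63 to 10.8) and chromosome 19 held 61 (8.13%, 6.28 to 10.3). These chromosomes held 11.3, 7.08 and 5.75% of the T47D ER sites with E2, and 6.17, 4.04 and 2.82% of all union regions. Chromosome 18 held 22 core regions (2.93%, 1.85 to 4.41), against 1.59% of the T47D ER sites with E2. Chromosome 3 held 31 (4.13%, 2.83 to 5.82) and chromosome 5 held 18 (2.40%, 1.43 to 3.77), against 6.03 and 4.98% of those sites and 9.42 and 5.35% of all union regions. On chromosomes 18 and 19 the shares of all 3 defining lists lay below the counting interval of the core (1.59, 1.29 and 1.01%, and 5.75, 5.52 and 6.02%). The 605 regions with another list had 1.32% on chromosome 18 and 7.93% on chromosome 19, the latter close to the core. On chromosomes 1, 2, 3 and 5 they had 9.26, 6.78, 2.98 and 3.31%, so low shares on chromosomes 3 and 5 were not particular to the core. On chromosome 3 the PR-deficient lists, at 5.61 and 5.53%, lay inside the interval. On chromosomes 1 and 2 both PR-deficient shares lay below the interval of the core, and on chromosomes 7, 11 and 14 they lay above it. The core is part of these lists and 24 chromosomes were looked at, so no test is attached.

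**Figure D5:**
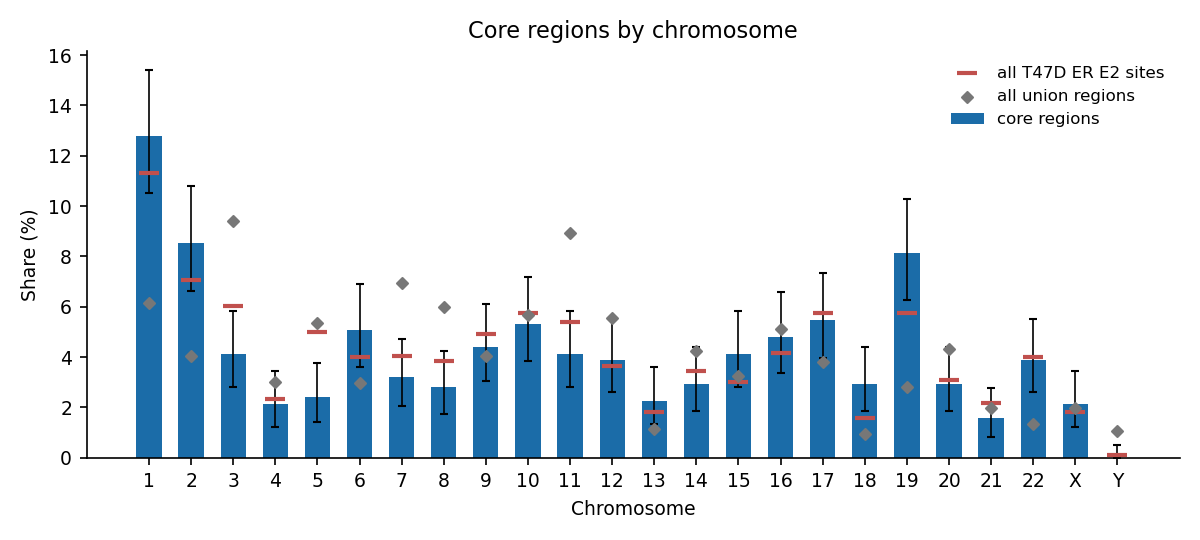
Share of core regions on each chromosome (bars, percent, with exact 95% intervals for counting error), of all T47D ER sites with E2 (red dashes) and of all union regions (grey diamonds). Chromosome 19 holds 8.13% of the core against 5.75% of the T47D list, and chromosome 3 holds 4.13% against 6.03%.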

How the data were processed

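Bowtie2, MACS and the hg19 build are named in the submitters' processing notes. The sources used here give no versions or settings. The authors subtracted the vehicle signal, and IgG for the reChIP, per the labels. Each deposited list holds 5 columns: chromosome, start, end, length and score. The score is the authors' own, in steps that differ between lists, so it was used only to order sites within a list. The deposited length in bp (other) equals end minus start plus 1, so positions count from 1. Each list comes from 1 library.

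Union regions were built with pandas 2.3.3 and NumPy 2.4.6 under Python 3.11.15. Intervals came from SciPy 1.17.1 and plots from matplotlib 3.10.9. On simulated lists the rule recovered 200 of 200 planted regions and called 0 others. The simulated regions were placed too far apart to touch, so this checks the code and not the merging of close sites. The members and lists were chosen with earlier results of these data known. Named regions are the 20 with the highest mean percentile and 3 at each other extreme (lowest, line gap, edge of the rule, distance), of which a few are not printed. Planned motif and gene searches were not run, since hg19 was not used here. In place of a test, 9 alternatives were planned and 7 added after seeing the data.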

Additional observations from a re-analysis of the deposited data

How the results depend on the processing

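No paired analysis was possible because no group has a second library. The count of 750 core regions stayed between 591 and 935 under 14 of 16 alternatives, and was 480 with the higher-scoring 50% of all 10 lists and 364 with that of the 3 defining lists. The share of T47D ER sites with E2 in the core (18.8%) was 14.7% with sites of 200 bp, 23.9% with the higher-scoring 50% of all lists, 23.4% with that of the 7 excluded lists, 21.4% ignoring T47D ER with both hormones and 20.5% ignoring the reChIP. The share of core regions in the highest T47D quintile (27.7%) was 54.4%, 48.9% and 32.2% with the higher-scoring 50% of all, of the defining and of the excluded lists, and 32.1% ignoring T47D ER with both hormones. The share with centres within 200 bp (63.3%) was 86.1% with sites of 200 bp, and 57.3% and 58.8% with the higher-scoring 50% of all and of the defining lists. The quintile is that of the full list. A defining list without its lower scores therefore has a larger share of its kept sites there by construction, 803 of 2007 in T47D. Sites of 200 bp must lie close to overlap, also by construction. Ignoring an excluded list, or dropping lower scores of the 7 excluded lists only, can add core regions but remove none. The share of T47D sites in the core can therefore only rise there, by construction. Why the share in the highest quintile rose in these cases was not tested. The other values moved by less than their counting interval or less than 1.5 times. Depth is unknown, so absence from a list is not absence of binding.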

Other observations

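Most core regions had no other core region within 50 kb, but some lay in groups. The gap between neighbouring core regions on a chromosome had a median of 1.24 Mb over 727 gaps. Within 50 kb of another lay 121 core regions (16.1%), in 54 groups, of which 46 were pairs. The same share was not computed for other regions, so neither spacing nor grouping can be called particular to the core. The largest group held 5 core regions over 81.1 kb at chr17:38695732-38776811, chosen here after its values were seen. Its T47D percentiles ran from 8.2 at chr17:38695732-38699157 to 90.3 at chr17:38731758-38733413, where PR-deficient cells had 92.0 with E2 and 75.5 with both hormones. Groups of 4 lay at chr1:17849630-17888810, chr2:238395088-238419961 and chr10:112190324-112258756. Only 8 gaps were 1 kb or less, the smallest being 71 bp on chromosome 18 and 76 bp between chr3:58025433-58026682 and chr3:58026759-58027923, where the merging rule counted close sites as separate regions.

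Wider core sites tended to have higher scores, to a like degree in the 3 lists. Spearman's rho of score and width was 0.340 over the 755 core sites of T47D with E2, 0.354 over the 770 of PR-deficient cells with E2 and 0.353 over the 757 with both hormones. Over the whole lists it was 0.333, 0.247 and 0.104. At equal quintile of score, core sites were narrower than their list in all 5 quintiles of both PR-deficient lists and in 4 of 5 in T47D. In the lowest quintile the medians were 1044 against 1026.5 bp in T47D, 798 against 908 bp in PR-deficient cells with E2 and 821 against 1078 bp with both hormones. These are descriptions over sites of 1 library each. The rule drops regions touched by another list, which wider sites meet more easily, so width is not independent of the selection.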
